A study of Mus musculus with 6 samples.

Results

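Forkhead transcription factors were defined as the protein-coding genes of the deposited count table whose symbol is Fox, a subfamily letter from a to s and a number. That rule found 44 of 54532 genes, of which 28 had at least 1 count and 18 had enough counts to be tested. The table's own transcription factor annotation placed 43 of them in its forkhead class. They were followed in L929, a mouse fibroblast line labelled WT, in 3 untreated control libraries and in 3 libraries from cells given TNF-α at 10 ng/ml together with actinomycin D at 1 µg/ml for 12 hours. No group received either agent alone, so each difference belongs to the combination. Nothing in the labels shows the replicates to be independent cultures; the p-values therefore reflect the variation among these 6 libraries, which may be technical. The treatment protocol is attached to control samples as well, and groups follow the treatment label.

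Forkhead proteins bind DNA through a conserved winged-helix domain, named after the fork head gene of the fruit fly. FOXO proteins sit at the end of insulin and growth factor signalling: the kinase AKT phosphorylates them, 14-3-3 proteins then hold them outside the nucleus, and when that signal fades they switch on genes for cell cycle arrest, stress defence and cell death. FOXM1 drives genes of mitosis, FOXK proteins repress starvation and autophagy genes, FOXP proteins are dimeric repressors, and FOXC, FOXF, FOXL and FOXS proteins are known from mesenchymal and vascular development. TNF-α is a cytokine of inflammation, while actinomycin D binds DNA and stops transcription.

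After treatment most of the measured forkhead mRNAs were lower, and the family's make-up shifted to Foxs1 and Foxo4. Of the 18 tested members, 13 fell and 4 rose at an adjusted p of 0.05 (edgeR's quasi-likelihood test, Benjamini-Hochberg adjustment over all 13290 tested genes). Falls thus took 72.2% of the tested members, where 40.2% of all tested genes were called lower, and rises took 22.2%, where 34.6% of all tested genes were called higher. The median log2 fold change was −1.87 over the tested members and −0.18 over all tested genes. The largest fall was that of Foxk1, from 69.9 ± 4.9 to 6.67 ± 2.75 CPM (counts scaled to a common library size after TMM normalisation; mean ± SD, n = 3 libraries per group, as for each pair of values below). The largest rise was that of Foxo4, from 8.04 ± 0.82 to 46.7 ± 5.8 CPM. TMM scaling equalises libraries on the bulk of genes and not on RNA per cell, so a change is relative to that bulk.

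Library totals were 16056207 to 18036322 counts, and TMM factors were 1.34 to 1.53 in controls and 0.640 to 0.797 in treated libraries. Other scalings moved the median of all tested genes by −1.04 (library size alone), −2.39 (cytosolic ribosomal protein genes set equal between libraries, below called ribosomal scaling) and −2.15 (the same for mitochondrially encoded genes, below called mitochondrial scaling). Treated replicate 1 had counts in 15705 genes, replicate 2 in 17688 and replicate 3 in 18849, against 19219 to 20116 in controls. The 10 fibroblast markers, 1 of them under 1 CPM on average, summed to 6337 to 8199 CPM in controls and 20410 to 23830 CPM in treated libraries, led by Vim. Of 6 macrophage markers 4 were under 1 CPM on average, among them Itgam at 0. The sum of all 6, led by the lysosomal gene Cd68, went from at most 4.80 CPM in controls to at least 43.9 CPM in treated libraries. The part of Cd68 in the results was not tested. Of 5 epithelial and 4 endothelial markers, Epcam and Kdr were at 0, and the sums were at most 12.8 and 0.538 CPM in any library. Total RNA per cell was not measured, and in bulk RNA fewer cells with a transcript and less of it per cell cannot be told apart.

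Upstream sequences of the members were read from RefSeq (build GRCm38.p6), which matched 28 of the 44 members and 10 of the 18 tested ones; the 250 bases before the start site nearest to the deposited gene start were used. That site was within 270 bases of the deposited start for 7 of the 10, but 1728 bases away for Foxp1, 2657 for Foxj3 and 113508 for Foxn3, so those windows belong to other annotated starts. The 3 shown are those of Foxk2 and Foxo3, abundant members that fell, and Foxn1, which was near the limit of detection, because they differ in their content of CpG dinucleotides. Capitals mark each CpG. Foxk2 lies on the plus strand at chr11:121259737-121259986, Foxo3 on the minus strand at chr10:42276696-42276945 and Foxn1 on the minus strand at chr11:78386609-78386858.
Foxk2: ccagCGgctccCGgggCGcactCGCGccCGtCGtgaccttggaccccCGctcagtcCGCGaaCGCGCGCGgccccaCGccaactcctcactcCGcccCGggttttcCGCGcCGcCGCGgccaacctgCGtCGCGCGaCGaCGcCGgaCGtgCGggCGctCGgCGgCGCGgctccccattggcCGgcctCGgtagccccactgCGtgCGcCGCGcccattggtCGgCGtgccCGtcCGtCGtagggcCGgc
Foxo3: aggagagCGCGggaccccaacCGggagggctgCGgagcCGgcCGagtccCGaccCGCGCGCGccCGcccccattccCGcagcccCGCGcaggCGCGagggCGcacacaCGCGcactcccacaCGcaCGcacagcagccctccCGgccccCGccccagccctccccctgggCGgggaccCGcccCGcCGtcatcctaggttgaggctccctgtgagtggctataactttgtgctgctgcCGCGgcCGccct
Foxn1: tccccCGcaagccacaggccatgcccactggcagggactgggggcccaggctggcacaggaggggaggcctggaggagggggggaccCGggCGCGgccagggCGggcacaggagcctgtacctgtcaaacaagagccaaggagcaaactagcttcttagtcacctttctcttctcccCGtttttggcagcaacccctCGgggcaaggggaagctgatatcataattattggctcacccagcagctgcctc
These windows held 48 CpG for Foxk2, 31 for Foxo3 and 7 for Foxn1. The median was 28 over the 10 tested members with a sequence and 6 over 32851 RefSeq promoters, and the median GC content was 70.2% and 52.4%. Over all 28 members with a sequence, tested or not, the medians were 16.5 CpG and 62.4% GC. The forkhead core TGTTTAC, searched on both strands, was in none of the 10 windows and in 3.17% of all promoters, and CCAAT, also on both strands, was in 4 of the 10 and in 33.8% of all promoters. A match or its absence in these letters says nothing of binding.

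In untreated cells the family's mRNA was led by Foxm1, Foxk2, Foxp4 and Foxs1. Levels of different genes were compared as CPM per kb of the deposited gene length. Foxm1 had 23.2 ± 2.0 CPM per kb in controls, Foxk2 20.8 ± 2.2, Foxp4 18.3 ± 2.5 and Foxs1 17.6 ± 1.6, and the libraries' ranges of each neighbouring pair in that order overlapped. Foxc2, a regulator of lymphatic and mesenchymal development, followed at 15.3 ± 3.0, also with overlapping ranges. Foxk1 came lower, with a range separate from that of Foxc2: it stood at 9.22 ± 0.65 CPM per kb and Foxo3 at 6.95 ± 0.70. Foxo4 held only the fourteenth place at 2.31 ± 0.24 CPM per kb, and Foxn3, Foxo1, Foxn1 and Foxc1 were each under 1. The plot of levels by library shows this order and each gene's treated values.

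**Figure D1:**
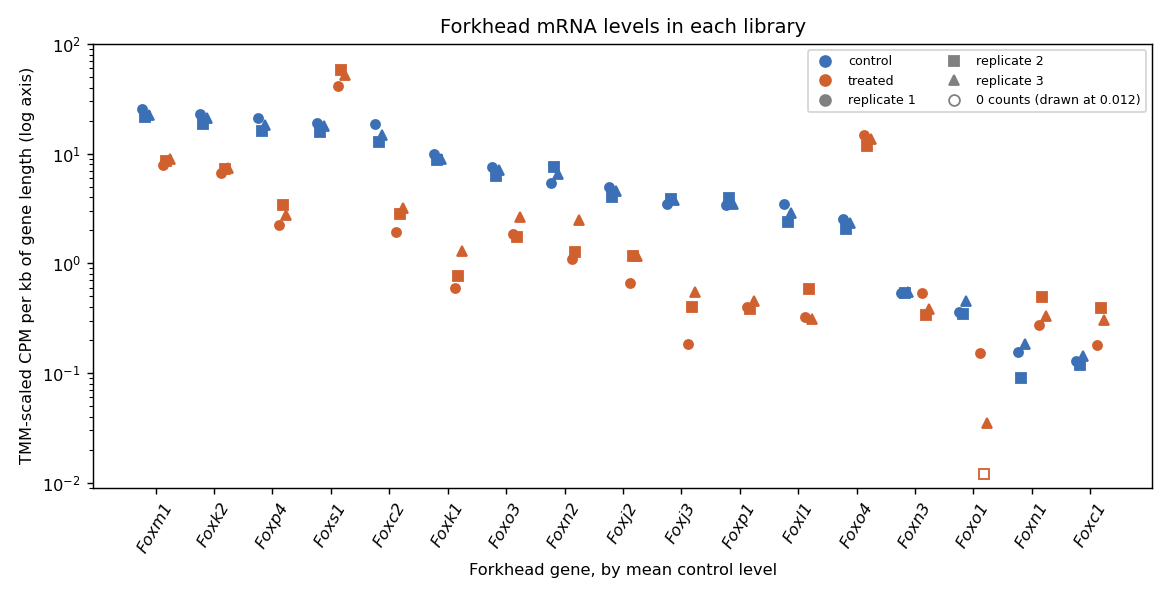
TMM-scaled CPM per kb of gene length (log axis) for 17 of the 18 tested forkhead genes, ordered by mean control level; blue points are the 3 control and orange points the 3 treated libraries, with shape giving the replicate, and the open point is a library with 0 counts. Foxs1 and Foxo4 are the only genes above 1 CPM per kb whose treated points lie above their control points.

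After treatment the order was different. Foxs1 led at 50.6 ± 8.6 CPM per kb and Foxo4 came next at 13.4 ± 1.7, with ranges separate from each other and from Foxm1 at 8.51 ± 0.56. Foxk2 had 7.12 ± 0.43 CPM per kb, with a range just below that of Foxm1. Foxo1 was last at 0.063 ± 0.080 CPM per kb.

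Forkhead transcripts together took 1105, 1105 and 1115 CPM of the library total in control replicates 1, 2 and 3, and 176, 203 and 277 in treated replicates 1, 2 and 3. On the TMM scale their sum was 773 ± 50 CPM in controls and 311 ± 37 CPM in treated libraries. Within that pool, measured per kb inside each library and so independent of scaling between libraries, Foxs1 took 11.5%, 11.4% and 11.9% in the 3 controls and 47.4%, 55.2% and 47.7% in the 3 treated libraries. Foxo4 took 1.53%, 1.48% and 1.56% in controls and 17.1%, 11.0% and 12.5% after treatment. Both genes together held 12.9% to 13.4% of the pool in controls and 60.2% to 66.1% in treated libraries. The share of Foxm1 went from 15.4% ± 0.3 to 8.49% ± 0.48, that of Foxp4 from 12.1% ± 0.6 to 2.76% ± 0.37 and that of Foxk1 from 6.10% ± 0.16 to 0.860% ± 0.282. These shares are descriptions with no test, and a share can move because others did. Dividing by length does not take out the trend of change with gene length, which is described below. With an offset for that trend, the log2 change went from 1.52 to 0.61 for Foxs1 and from 2.54 to 2.70 for Foxo4.

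**Figure D2:**
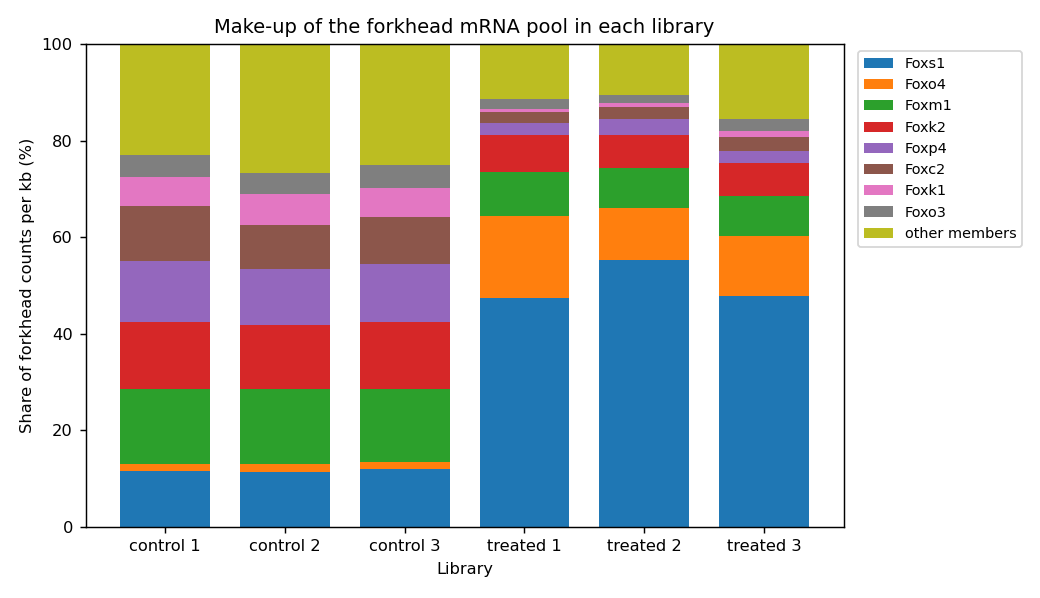
Share of the forkhead mRNA pool (percent of forkhead counts per kb, 1 bar per library) held by 8 named genes and by the other members together. Foxs1 (blue) and Foxo4 (orange) hold 12.9% to 13.4% in the 3 control bars and 60.2% to 66.1% in the 3 treated bars.

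The FOXO genes went in opposite directions. Foxo4 (chromosome X, 101254528 to 101260873) had 8.78, 7.15 and 8.18 CPM in control replicates 1, 2 and 3 and 52.01, 40.5 and 47.5 CPM in treated replicates 1, 2 and 3. Each treated library lay far above each control. The log2 fold change was 2.54 ± 0.19 (SE), a 5.80-fold rise (edgeR adjusted p = 1.03e-06). By library size alone the log2 change was 1.5 (adjusted p = 1.87e-04), and its raw counts were 594 in the controls and 1669 in the treated libraries. Ribosomal scaling (0.15, adjusted p = 0.597) and mitochondrial scaling (0.37, adjusted p = 0.314) both ended the call.

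Foxo3, the most abundant FOXO gene in controls (chromosome 10, 42181841 to 42276755), had 57.4, 46.9 and 53.5 CPM in controls and 14.1, 13.3 and 19.9 CPM in treated libraries. The groups did not overlap, and treated replicate 3 was the highest of its group. Its log2 fold change was −1.74 ± 0.20 (edgeR adjusted p = 1.7e-05), or −0.80 with an offset that takes out the trend of change with gene length. Foxo1, the main FOXO of liver metabolism (chromosome 3, 52268336 to 52353221), was already low, at 3.11, 2.98 and 3.95 CPM in controls, and reached 1.33, 0 and 0.305 CPM in treated libraries. It passed the expression filter through its control counts, with 248 control and 19 treated counts. Its log2 fold change of −2.63 ± 0.72 (edgeR adjusted p = 0.00688) became −4.40 without treated replicate 1 and −1.57 with the length offset, where the call was lost (adjusted p = 0.0744). The last FOXO gene, the brain-enriched Foxo6, had 0 counts in all 6 libraries.

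The ratio of Foxo4 to Foxo3 counts inside each library, which no scaling between libraries can change, gave the largest shift of the 6 paralog pairs compared. These pairs are the 2 tested members of a subfamily with the highest levels per kb. The ratio was 0.153 in each of the 3 controls and 3.67, 3.05 and 2.38 in treated replicates 1, 2 and 3. On the log2 scale, with 0.5 added to each count, it moved by 4.29, from −2.71 ± 0.0010 to 1.58 ± 0.31. The exact two-sided permutation p was 0.1 (0.12 adjusted over the 6 pairs), the smallest that 3 libraries against 3 allow. A count ratio is not a ratio of levels, since the genes differ in length. Nor does it take out the trend of change with gene length. With the length offset the log2 changes were 2.70 for Foxo4 and −0.80 for Foxo3, and −2.72 for Foxc2 and 1.885 for Foxc1. Under that offset Foxc2 and Foxc1 were thus further apart than Foxo4 and Foxo3, so the first place of Foxo4 over Foxo3 holds for the raw count ratios only. Foxc1 was near the limit of detection, and the difference between the pairs was not tested.

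FOXK genes, a pair of close paralogs, both fell, to unequal degrees. Foxk1 (chromosome 5, 142401497 to 142462011) had 75.5, 66.1 and 68.3 CPM in controls and 4.50, 5.75 and 9.77 CPM in treated libraries, a log2 fold change of −3.38 ± 0.27 (edgeR adjusted p = 1.45e-06). Foxk2 (chromosome 11, 121259990 to 121309896), whose CpG-dense upstream sequence is printed above, had 120, 97.3 and 111 CPM in controls and 34.9, 38.5 and 39.0 CPM in treated libraries, a change of −1.55 ± 0.15 (adjusted p = 5.12e-06). Neither gene's groups overlapped. With the length offset the changes were −2.46 and −0.91. The ratio of Foxk2 to Foxk1 counts was 1.59, 1.47 and 1.62 in controls and 7.68, 6.65 and 3.98 in treated libraries, a shift of 1.92 on the log2 scale (exact permutation p = 0.1, adjusted 0.12). Treated replicate 3 had the smallest ratio of its group.

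Foxm1, the mitotic forkhead (chromosome 6, 128362967 to 128376146), had 146, 124 and 131 CPM in controls and 45.4, 49.8 and 51.7 CPM in treated libraries. The groups were well apart and the treated libraries close to each other. Its log2 fold change was −1.45 ± 0.15 (edgeR adjusted p = 6.16e-06), and −0.73 with the length offset. By mean level per kb it ranked 1 of 18 in controls and 3 of 18 after treatment.

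FOXP genes encode repressors with a zinc finger and a leucine zipper beside the forkhead domain. Foxp4 had 103, 78.7 and 89.1 CPM in controls and 11.0, 16.6 and 13.6 CPM in treated libraries, a log2 fold change of −2.72 ± 0.20 (edgeR adjusted p = 9.68e-07). Foxp1, a gene spanning 597384 bases, had 47.0, 53.7 and 48.0 CPM in controls and 5.48, 5.22 and 6.26 CPM in treated libraries, a change of −3.13 ± 0.19 (adjusted p = 4.58e-07). Both fell with no overlap between groups. Their count ratio, Foxp4 over Foxp1, was 2.19, 1.46 and 1.86 in controls and 1.99, 3.17 and 2.16 in treated libraries, so the groups overlapped (log2 shift 0.40, exact permutation p = 0.3). This was the pair of 6 whose ratio did overlap. Foxp3, the regulatory T cell factor, had 27 control and 2 treated counts, and Foxp2, known from speech and motor circuits, 27 and 6. Neither had enough counts to be tested. On the TMM scale the treated to control ratio was 0.153 for Foxp3 (95% exact interval 0.0177 to 0.610, counting error only) and 0.460 for Foxp2 (0.155 to 1.14).

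Of the FOXJ and FOXN genes, Foxn3 is tied to checkpoint control. Foxj3 had 37.8, 42.5 and 41.3 CPM in controls and 2.03, 4.42 and 6.03 CPM in treated libraries, a log2 fold change of −3.27 ± 0.32 (edgeR adjusted p = 5.44e-06). Foxj2 had 26.4, 21.3 and 24.4 CPM in controls and 3.53, 6.28 and 6.18 CPM in treated libraries, a change of −2.17 ± 0.26 (adjusted p = 1.81e-05). Both fell and both groups were separate. The Foxj2 to Foxj3 count ratio was 0.698, 0.502 and 0.591 in controls and 1.72, 1.42 and 1.02 in treated libraries (log2 shift 1.20, exact permutation p = 0.1, adjusted 0.12). Foxj1, the master gene of motile cilia, had 0 counts throughout.

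Foxn2 had 39.9, 55.4 and 47.8 CPM in controls and 8.12, 9.28 and 18.2 CPM in treated libraries, a log2 fold change of −2.001 ± 0.295 (edgeR adjusted p = 1.15e-04). Foxn3 was the tested member that did not pass. It had 6.21, 6.13 and 6.28 CPM in controls and 6.09, 3.89 and 4.43 CPM in treated libraries, a change of −0.37 ± 0.26 (adjusted p = 0.22). Its call depended on the setting: it was called lower without treated replicate 1 (−0.66, adjusted p = 0.024), by library size alone and under ribosomal and mitochondrial scaling, and called higher by 0.88 with the length offset (adjusted p = 0.0216). The Foxn2 to Foxn3 count ratio was 6.41, 9 and 7.58 in controls and 1.33, 2.37 and 4.08 in treated libraries, a log2 shift of −1.70 (exact permutation p = 0.1, adjusted 0.12).

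The mesenchymal forkhead genes split. Foxs1, a gene of 1 exon linked to pericytes and vascular smooth muscle (chromosome 2, 152931898 to 152933208), had 24.9, 20.8 and 23.5 CPM in controls and 54.2, 76.6 and 67.9 CPM in treated libraries. Each treated library was above each control. The log2 fold change was 1.52 ± 0.18 (edgeR adjusted p = 1.95e-05). The size of this rise rests on scale: raw counts were 1704 in the controls and 2371 in the treated libraries, the log2 change was 0.49 by library size alone (adjusted p = 0.0485) and 0.61 with the length offset (adjusted p = 0.00887). It turned to −0.85 under ribosomal scaling (adjusted p = 0.02) and to −0.65 under mitochondrial scaling (adjusted p = 0.058).

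Foxc2 and Foxl1 lie next to each other on chromosome 8, with the lung and gut mesenchyme gene Foxf1 at lower coordinates. Foxc2 (121116171 to 121118895) had 50.6, 34.6 and 40.0 CPM in controls and 5.21, 7.60 and 8.63 CPM in treated libraries, a log2 fold change of −2.54 ± 0.24 (edgeR adjusted p = 4.12e-06). Foxl1 (121127940 to 121130644), a marker of mesenchymal cells beside gut epithelium, had 9.44, 6.42 and 7.71 CPM in controls and 0.883, 1.59 and 0.840 CPM in treated libraries, a change of −2.83 ± 0.35 (adjusted p = 2.35e-05). Both neighbours fell with no overlap between groups. Foxl1 passed the expression filter through its control counts, as it reached the filter's cut in 3 control and 2 treated libraries. Its totals were 580 control and 39 treated counts. Foxf1 (121084386 to 121088144) had 5 control and 2 treated counts, too few to compare.

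Foxc1, the paralog of Foxc2 on chromosome 13, was near the limit of detection, at 0.745, 0.695 and 0.830 CPM in controls and 1.06, 2.30 and 1.76 CPM in treated libraries. Its log2 fold change of 1.17 ± 0.45 passed narrowly (edgeR adjusted p = 0.0343). Foxn1, the thymus and hair follicle gene, had 0.497, 0.286 and 0.593 CPM in controls and 0.883, 1.59 and 1.07 CPM in treated libraries (change 1.35 ± 0.51, adjusted p = 0.0335). Raw counts were close to even, 56 and 61 for Foxc1 and 34 and 42 for Foxn1. Neither call was kept by library size alone, with no filter or without control replicate 1, 2 or 3 or treated replicate 2 or 3, in each of which 2 members were called higher in place of 4. The Foxc2 to Foxc1 count ratio, free of scaling, went from 66.0, 48.4 and 47.1 to 4.76, 3.26 and 4.83 (log2 shift −3.66, exact permutation p = 0.1, adjusted 0.12).

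**Figure D3:**
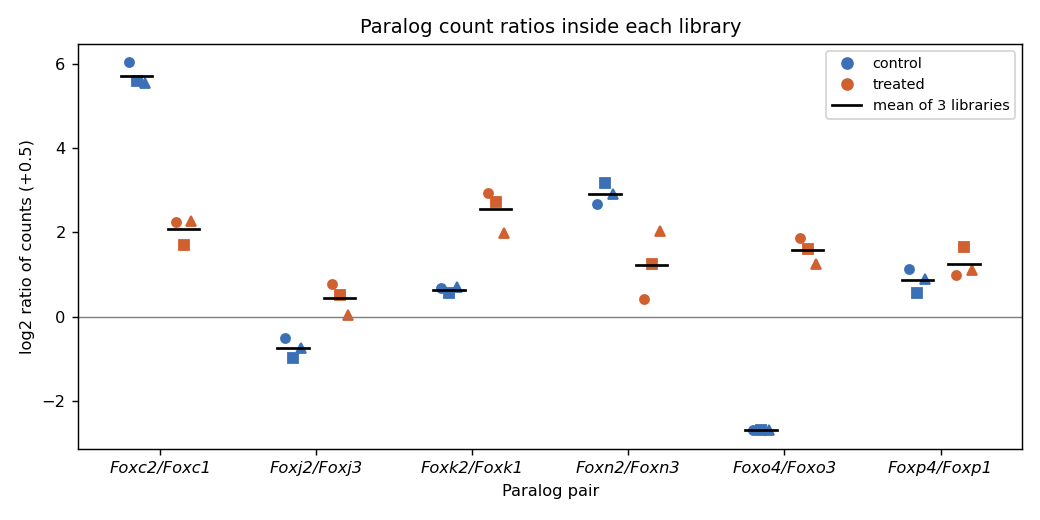
Log2 ratio of counts (0.5 added to each) of 6 paralog pairs inside each library; blue points are control and orange points treated libraries, shape gives the replicate and black bars are the means of 3 libraries. The groups are apart for 5 pairs, widest for Foxo4/Foxo3 in these ratios without a length offset, and overlap for Foxp4/Foxp1.

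Other annotated genes that overlap the members described above held at most 35 counts in a group, the highest being Frg2f1, antisense to Foxj3, with 35 control and 33 treated counts. For Foxp3 such counts were not small beside its own 27 and 2. Flicr, on the same strand, held 30 control and 1 treated counts, and Gm36995, antisense, 15 and 7. The part of shared reads in the Foxp3 counts was not tested.

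The other 26 members could not be tested. Foxh1, a partner of nodal signalling, had 4 control and 10 treated counts, and the liver factor gene Foxa3 had 1 and 10, a TMM-scaled ratio of 20.7 with an exact 95% interval of 2.94 to 898. Foxd4, Foxa1, Foxd1, Foxq1 and Foxr1 had 1 or 2 counts in all. For 16 members, among them Foxa2, Foxb1, Foxd3, Foxe1, Foxf2, Foxi1 and Foxl2, no library held a count, which allows up to 0.0582 CPM of the library totals in controls and 0.0584 in treated libraries (3 counts over the group).

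The changes went with gene length among forkhead genes as among all genes. Over the 18 tested members the rank correlation of gene length with log2 fold change was −0.41, and over all 13290 tested genes it was −0.42; genes share the libraries, so no p is given. Of 11 members of at least 5000 bases 9 were called lower, or 81.8%, against 59.0% of all tested genes of that length. Of 7 shorter members 4 were called lower, or 57.1%, against 29.0%. The length offset left 12 forkhead genes lower, where 34.3% of all tested genes were called lower, and 5 higher, where 37.2% were. With that offset the log2 changes were −1.80 for Foxp1, −2.13 for Foxj3, −1.53 for Foxj2 and −1.11 for Foxn2. The 4 tested members with a single exon went both ways, Foxc2 and Foxl1 lower and Foxs1 and Foxc1 higher. The groups were fully separate for 14 members that were lower, where this held for 42.0% of all tested genes, and for 4 that were higher, where it held for 35.9%. By library size alone 14 members were lower (59.6% of all tested genes) and 2 higher (17.1%). Under ribosomal scaling 16 were lower (82.4% of all tested genes) and 0 higher (1.86%), and under mitochondrial scaling 14 were lower (77.8%) and 0 higher (2.51%).

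**Figure D4:**
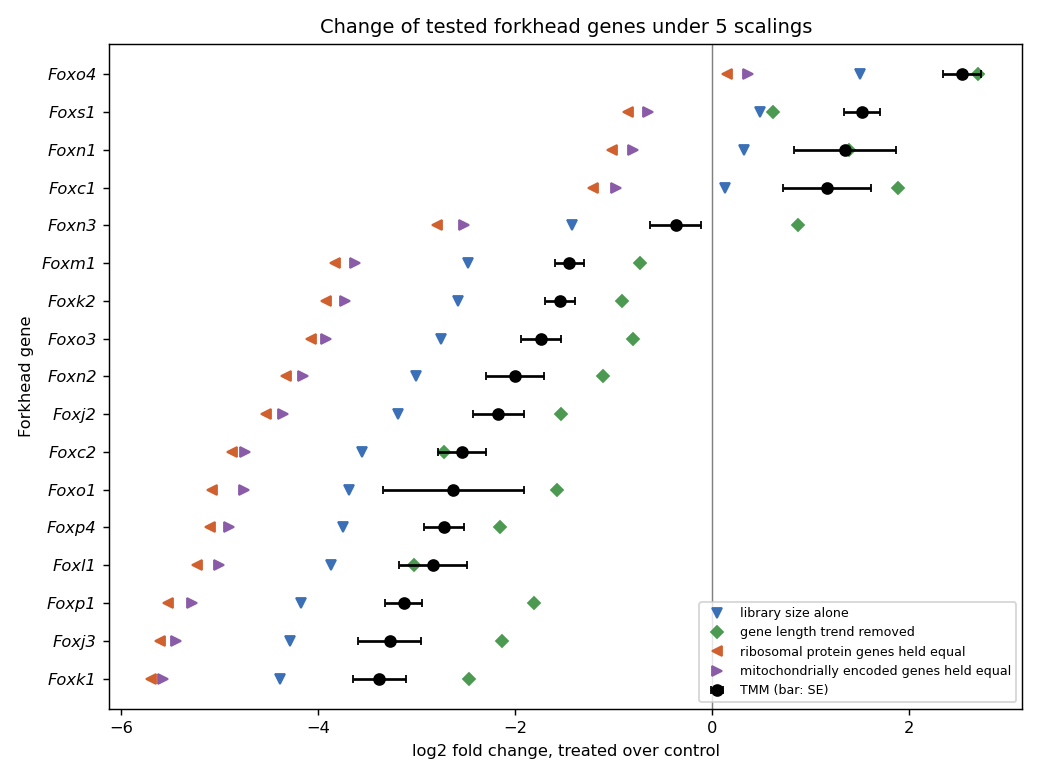
Log2 fold change of 17 of the 18 tested forkhead genes, treated over control, with TMM scaling (black, bar is the SE) and under 4 other settings (coloured symbols without error bars). Foxo4 is at or above 0 in each of the 5 settings, while Foxs1, Foxn1 and Foxc1 fall below 0 under ribosomal or mitochondrial scaling.

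Most genes that act on FOXO proteins were lower with TMM scaling, and Akt1 and Akt2 were among those that rose. Of 41 listed kinases, phosphatases, 14-3-3 proteins, ubiquitin enzymes and coactivators, 39 were tested, 24 fell and 9 rose, with a median log2 fold change of −0.94. That is 61.5% lower and 23.1% higher, beside 40.2% and 34.6% of all tested genes. With the length offset 18 were lower and 11 higher, where 34.3% and 37.2% of all tested genes were. Akt1, the kinase that excludes FOXO from the nucleus, went from 261 ± 45 to 719 ± 58 CPM (log2 fold change 1.46 ± 0.17), and Akt2 from 101 ± 18 to 276 ± 20 CPM (1.45 ± 0.17, or 2.37 with the length offset). Sirt2, a deacetylase of FOXO proteins, had the largest rise (1.87 ± 0.16). Pik3cb, a catalytic subunit of PI3-kinase upstream of AKT, fell from 40.3 ± 1.0 to 2.80 ± 0.40 CPM (−3.85 ± 0.21). The coactivator gene Ep300 changed by −4.55 ± 0.56, or −5.16 without treated replicate 3, and the FOXO1 kinase gene Dyrk1a by −3.58 ± 0.22. Mdm2, a ubiquitin ligase for FOXO and p53, changed by −0.98 ± 0.17, or −0.39 with the length offset; the call was lost with that offset and a replicate block together (−0.39, adjusted p = 0.0537). The named genes of this list that passed had edgeR adjusted p-values of at most 3.54e-04. The rises of Akt1, Akt2 and Sirt2 turn negative under ribosomal or mitochondrial scaling.

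With TMM scaling, known FOXO target genes moved both ways. Of 38 listed, 32 were tested, 13 rose and 14 fell (43.8% lower and 40.6% higher, beside 40.2% and 34.6% of all tested genes), with a median of −0.05. Under ribosomal scaling 27 were lower and 0 higher, beside 82.4% and 1.86% of all tested genes. Under mitochondrial scaling 26 were lower and 0 higher, beside 77.8% and 2.51%. The autophagy genes Pink1 and Map1lc3b rose by 2.78 ± 0.22 and 2.40 ± 0.17, Pink1 from 15.03 ± 3.89 to 103 ± 14 CPM. Cdkn1a, the p21 inhibitor gene that p53 also drives, rose from 36.3 ± 6.3 to 141 ± 10 CPM (1.96 ± 0.17), and was at −0.43 under ribosomal and −0.22 under mitochondrial scaling. Trp53inp1 rose by 2.08 ± 0.58, a call lost without treated replicate 3 (1.26, adjusted p = 0.082), and was at −0.22 and −0.031 under these scalings. Pink1 was no longer called under either (0.38 and 0.59), nor was Map1lc3b (−0.002 and 0.22). Bcl6, a transcriptional repressor gene, changed by −2.88 ± 0.30, the muscle atrophy ubiquitin ligase gene Fbxo32 by −2.41 ± 0.49 (−1.54 with the length offset) and Klf2, a quiescence factor gene, by −2.35 ± 0.59 (−3.10 without treated replicate 3). Fbxo32 and Klf2 were near the limit of detection in treated libraries, at 0.363 ± 0.090 and 0.431 ± 0.338 CPM. The death gene Bcl2l11, for BIM, had 6.19 ± 0.34 and 8.99 ± 1.03 CPM (edgeR adjusted p = 0.0504), and Cdkn1b, for the p27 inhibitor, 22.1 ± 2.0 and 14.9 ± 6.1 CPM (adjusted p = 0.0758). Bcl2l11 passed with several other settings, but not in the same direction. It was higher with the length offset, among others (1.54, edgeR adjusted p = 1.63e-04). It was lower under ribosomal scaling (−1.87, edgeR adjusted p = 3.46e-04) and mitochondrial scaling (−1.62, edgeR adjusted p = 3.19e-05). By library size alone it was negative and not called (−0.51, edgeR adjusted p = 0.0533). The death ligand genes Fasl and Tnfsf10 had at most 1 count in a library.

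Known FOXM1 target genes were mostly lower, and so were genes of forkhead partner proteins. Of 26 FOXM1 targets 18 fell (69.2%, beside 40.2% of all tested genes) and 5 rose (19.2%, beside 34.6%), with a median of −1.40. Plk1, the mitotic kinase gene, fell from 85.4 ± 14.7 to 1.61 ± 0.55 CPM (log2 fold change −5.72 ± 0.28), while Ccna2, for cyclin A, changed by −3.66 ± 0.24 and the mitotic kinase gene Aurka by −3.39 ± 0.20. In the opposite direction Cenpa, for the centromeric histone, rose by 1.81 ± 0.19, the cyclin B gene Ccnb2 by 1.59 ± 0.16 and Cks1b by 1.48 ± 0.18, each negative under ribosomal or mitochondrial scaling. With the length offset Ccnb2 was at 0.80 (edgeR adjusted p = 2.21e-04) and Cks1b at 0.44 (adjusted p = 0.0194). Of 27 tested partner genes 20 fell (74.1%, beside 40.2% of all tested genes) and 5 rose (18.5%, beside 34.6%), with a median of −2.18. Lin54, a DNA-binding subunit of the MuvB complex that recruits FOXM1, fell from 25.7 ± 3.2 to 1.31 ± 0.58 CPM, and Smad4 and Smad3, partners of FOXH and FOXO proteins, changed by −3.89 ± 0.30 and −3.66 ± 0.32. Hdac1 rose from 58.4 ± 4.2 to 255 ± 27 CPM, Sin3b, for a corepressor scaffold that FOXK proteins bind, by 1.73 ± 0.19, and Dvl1, of the Dishevelled group that FOXK proteins carry into the nucleus, by 0.84 ± 0.15. Hdac1, Sin3b and Dvl1 also turn negative under both of these scalings, Dvl1 by library size alone too. With the length offset Sin3b was at 2.70 and Dvl1 at 1.42. Lists were counted without a set test, and all of the genes named here as changed had edgeR adjusted p-values of at most 0.00724.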

How the data were processed

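The authors deposited 1 table of whole-number counts and 1 of FPKM for 6 libraries; the count table also gives gene length, another deposited value, in bases. HISAT2 2.1.0, RSEM 1.3.1 and DESeq2 1.24.0 are named per the submitters' processing notes, as are GRCm38 and mm10; strand use and the handling of shared reads are not given in the sources used here. Each deposited FPKM is the count per length times 1 constant per library. Columns were matched to samples by name and number; control columns carry the genotype name.

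Genes passing edgeR's filterByExpr (13290 of 24708 with a count) were tested with edgeR 4.0.16 (TMM, robust glmQLFit, glmQLFTest) in R 4.3.3; SE is the log2 fold change over the root of F. Paralog ratios used exact permutation tests. Alternatives used other scalings and filters, DESeq2 1.42.0 and limma 3.58.1 (voom, and log2 of FPKM plus 1 or 0.1). A lowess length offset (span 0.3), a replicate block and leaving out each library were used as well. Fits were checked on simulated data with few changed genes, as many higher as lower, with and without a length trend. A shift of most genes in 1 direction was not simulated, so that check does not cover the choice of scaling. The members and lists were chosen with earlier results of these data known. Tested members are named, and of each list at most the 3 largest rises and the 3 largest falls whose mean reached 1 CPM, plus a set of genes named whatever their values; 1 tested member and 1 list gene are counted but not reported here. Coordinates are the deposited ones; 41 of 44 members have the same ones in GENCODE M21. Figures were drawn with matplotlib 3.10.9.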

Additional observations from a re-analysis of the deposited data

How the results depend on the processing

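The count of forkhead genes called lower stayed between 12 and 16 in each alternative run, while the share of all tested genes called lower moved. The number of members tested differed too. It was 18 in most runs, 28 with no filter, 15 with at least 5 CPM in 3 libraries and 14 with a mean FPKM of at least 1. That share was 34.3% with the length offset and 82.4% under ribosomal scaling. Under mitochondrial scaling 14 of the 18 tested members were lower, beside 77.8% of all tested genes. The count called higher, 4, was 2 by library size alone (17.1% of all tested genes), with no filter (4816 of 24708) and with a replicate block (4450 of 13290). It was also 2 with at least 5 CPM in 3 libraries (3750 of 10084). The same held with log2(FPKM + 1) and log2(FPKM + 0.1) at a mean FPKM of at least 1 (4286 and 4280 of 10651). Foxc1 and Foxn1 were not tested at 5 CPM or in these FPKM runs, so no call of theirs was lost there. The count was 0 under ribosomal and mitochondrial scaling (1.86% and 2.51%). It was 2 to 4 when 1 library was left out (4125 to 4564 of 13622 to 13803). Under ribosomal scaling, 27 FOXO targets and 38 FOXO regulators were lower, beside 82.4% of all tested genes. Under mitochondrial scaling these counts were 26 and 37, beside 77.8%. In both, 0 FOXO targets, FOXM1 targets, FOXO regulators and partner genes were higher, beside 1.86% and 2.51% of all tested genes. By library size alone the genes higher were 5 FOXO targets, 3 FOXM1 targets, 4 regulators and 2 partners, beside 17.1% of all tested genes. With log2(FPKM + 1) and log2(FPKM + 0.1) at a mean FPKM of at least 1, 9 FOXO targets were lower, with fewer genes tested.

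Directions reversed as follows, under ribosomal and then mitochondrial scaling: Akt1 −0.91 and −0.72, Akt2 −0.94 and −0.73, Bcl2l11 −1.87 and −1.62, Ccnb2 −0.84 and −0.57, Cdkn1a −0.43 and −0.22, Cenpa −0.63 and −0.34, Cks1b −0.93 and −0.69, Dvl1 −1.52 and −1.33, Foxc1 −1.21 and −0.97, Foxn1 −1.02 and −0.80, Foxs1 −0.85 and −0.65, Hdac1 −0.27 and −0.035, Sin3b −0.70 and −0.44, Sirt2 −0.52 and −0.31, and Trp53inp1 −0.22 and −0.031. Map1lc3b was at −0.002 in the former. By library size alone Bcl2l11 was at −0.51 and Dvl1 at −0.18. Foxn3 was at 0.88 with the length offset and 0.83 with that offset and a replicate block. The cause of these changes beyond the scale factors themselves was not tested.

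Replicate numbers did not pair the libraries: same-numbered deviations correlated at 0.220, −0.137 and 0.029. With the replicate block the calls of Foxc1 (1.12) and Foxn1 (1.35) were lost, as was that of Foxn1 when the block was joined to the length offset (1.39), and Cdkn1b was called lower (−0.63). The block could not change the paralog shifts given above, because each replicate number holds 1 control and 1 treated library. Their equality with and without the block is therefore no check of them. With the block the smallest p of the exact permutation test is 0.25. Foxc1 and Foxn1 rest on 34 to 61 counts a group; the part of depth in their lost calls was not tested. With the length offset and block together the call of Mdm2 was lost (−0.39).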
